A study of Rattus norvegicus with 9 samples.

Results

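The serotonin and noradrenaline receptors described here are 10 genes of the rat spinal cord: 6 serotonin receptor genes (Htr1d, Htr2a, Htr2c, Htr3a, Htr5b and Htr7) and 4 adrenoceptor genes (Adra1a, Adra1b, Adra2a and Adra2c). They were chosen by gene name, and each of the 10 names matched 1 of the 34890 loci in the expression table. RNA of the L3-L6 spinal cord was sequenced in 9 male Sprague Dawley rats of wild-type genotype, in 3 groups of 3 labelled as biological replicates. The cord was taken from the side of the injury. The JA group had a sham operation and oral saline. The SNI group had spared nerve injury, a model of neuropathic pain in which branches of the sciatic nerve are ligated and cut, and oral saline. The PLM group had the same injury and the middle oral dose of paeoniflorin and liquiritin, plant glycosides of peony and licorice root, with paeoniflorin at 20.65 mg/ml. Its labels give liquiritin as 3.98, 3.99 and 3.100 mg/ml for replicates 1, 2 and 3, although a single dose was planned for the group. Saline or drug was given for 21 days. No uninjured group received the drug, so a difference between PLM and SNI is one between injured rats only. Levels are TPM, a unit that corrects for transcript length and gives each sample the same total, and since TPM keeps no read depth the counting error is unknown.

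Serotonin and noradrenaline reach the spinal cord in axons that descend from the brainstem, from the raphe nuclei and the locus coeruleus. In the dorsal horn these amines can damp or strengthen the relay of pain signals, depending on which receptor they bind, and drugs that block their reuptake are used against neuropathic pain. Htr2a, Htr2c, Adra1a and Adra1b encode receptors that act through Gq and phospholipase C and raise calcium. Htr1d, Adra2a and Adra2c encode receptors that act through Gi and lower cyclic AMP, and Htr7 encodes one that acts through Gs and raises it. Htr3a encodes a subunit of a cation channel opened directly by serotonin. Adra2a encodes the alpha-2A adrenoceptor, a target of clonidine and related analgesics.

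The bases before the gene start are shown for the receptor whose call depended on the scaling (Adra2a), for its closest relative in the set, which was not called (Adra2c), and for the most abundant receptor (Htr2c). They were taken from RefSeq on the GRCr8 assembly, where 7 of the 10 genes matched an entry, and each is the 250 bases upstream of the annotated start, 5′ to 3′ on the gene's strand. The Adra2a window is chr1:263066530-263066779 on the plus strand, the Adra2c window is chr14:79697477-79697726 on the minus strand, and the Htr2c window is chrX:115452940-115453189 on the plus strand. Capitals mark matches on either strand to 4 motifs: the GC box GGGCGG, the cyclic AMP response half-site TGACG, the TATA box TATAAA and the CCAAT box CCAAT.
Adra2a: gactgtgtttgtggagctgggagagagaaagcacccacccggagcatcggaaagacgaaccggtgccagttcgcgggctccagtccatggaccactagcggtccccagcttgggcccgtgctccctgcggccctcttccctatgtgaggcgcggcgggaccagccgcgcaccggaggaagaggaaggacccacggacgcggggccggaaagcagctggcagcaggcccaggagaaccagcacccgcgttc
Adra2c: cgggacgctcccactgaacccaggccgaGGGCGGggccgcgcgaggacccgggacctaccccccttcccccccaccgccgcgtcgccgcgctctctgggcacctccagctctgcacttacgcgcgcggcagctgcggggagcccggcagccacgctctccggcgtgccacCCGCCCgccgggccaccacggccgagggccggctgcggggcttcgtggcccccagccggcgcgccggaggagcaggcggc
Htr2c: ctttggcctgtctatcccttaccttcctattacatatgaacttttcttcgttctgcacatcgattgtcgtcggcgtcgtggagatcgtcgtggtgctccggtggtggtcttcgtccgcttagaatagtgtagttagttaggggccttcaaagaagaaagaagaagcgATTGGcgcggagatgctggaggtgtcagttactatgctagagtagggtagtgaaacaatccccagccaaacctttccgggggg
The Adra2a window held none of these motifs and was 67.6% G and C. The Adra2c window was 80.4% G and C with 2 GC boxes, and the Htr2c window was 50.4% G and C with 1 CCAAT box. Of the other matched genes, Htr1d had 3 GC boxes, Htr5b had 1 GC box and 1 CCAAT box, Htr7 had 1 half-site and Adra1b had none of the 4 motifs. Among all 33469 upstream windows of this length, 30.5% held a GC box, 18.2% the half-site, 12.9% a TATA box and 34.0% a CCAAT box, and the median G and C content was 51.2%. A match is a description of the letters only.

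The libraries differed in ways that touch the receptor values. The 13 mitochondrial protein genes took 23.7 to 26.1% of TPM in SNI, 31.3 to 32.8% in PLM and 25.3 to 32.8% in JA (TPM has the same total in each sample). The median log2 fold change over all loci tested was -0.21 in PLM versus SNI, 0.12 in SNI versus JA and -0.096 in PLM versus JA, so each receptor is given both as deposited and after the median log2 level of each sample was set equal (median-centred). The spinal cord origin was checked with markers: all 10 neuron markers were tested, and the sensory ganglion genes Scn10a and Scn11a were at 0.07 TPM or less with Mrgprd listed at 0. Markers of Schwann cells, which myelinate nerve roots, summed to 557 to 8026 TPM in JA, 1013 to 4836 TPM in SNI and 615 to 3669 TPM in PLM, and were highest in JA replicate 3, SNI replicate 2 and PLM replicate 3.

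Htr2c was the most abundant of the 10 receptors in each of the 9 samples. Its mean over the samples was 38.0 TPM, 4.63 times that of Htr7, and it made up 49.0 to 61.3% of the summed TPM of the 10 genes. Below it stood Htr7 at 8.21 TPM, Adra2c at 7.62 TPM and Adra2a at 5.57 TPM. Adra1b and Htr3a followed at 3.27 and 3.23 TPM, then Htr2a at 1.40 TPM. Htr1d, Adra1a and Htr5b had means of 0.597, 0.429 and 0.240 TPM. The ranges of Htr2c and Htr7 over the 9 samples did not overlap, whereas those of every other pair of neighbours in this order did. Some of these neighbours still kept their order within each library: Adra2a was above Adra1b, Htr3a above Htr2a, and Htr2a above Htr1d in 9 of 9 samples. Htr7 was above Adra2c, and Adra1b above Htr3a, in 6 of 9 samples only, so the order of these pairs was not resolved.

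**Figure D1:**
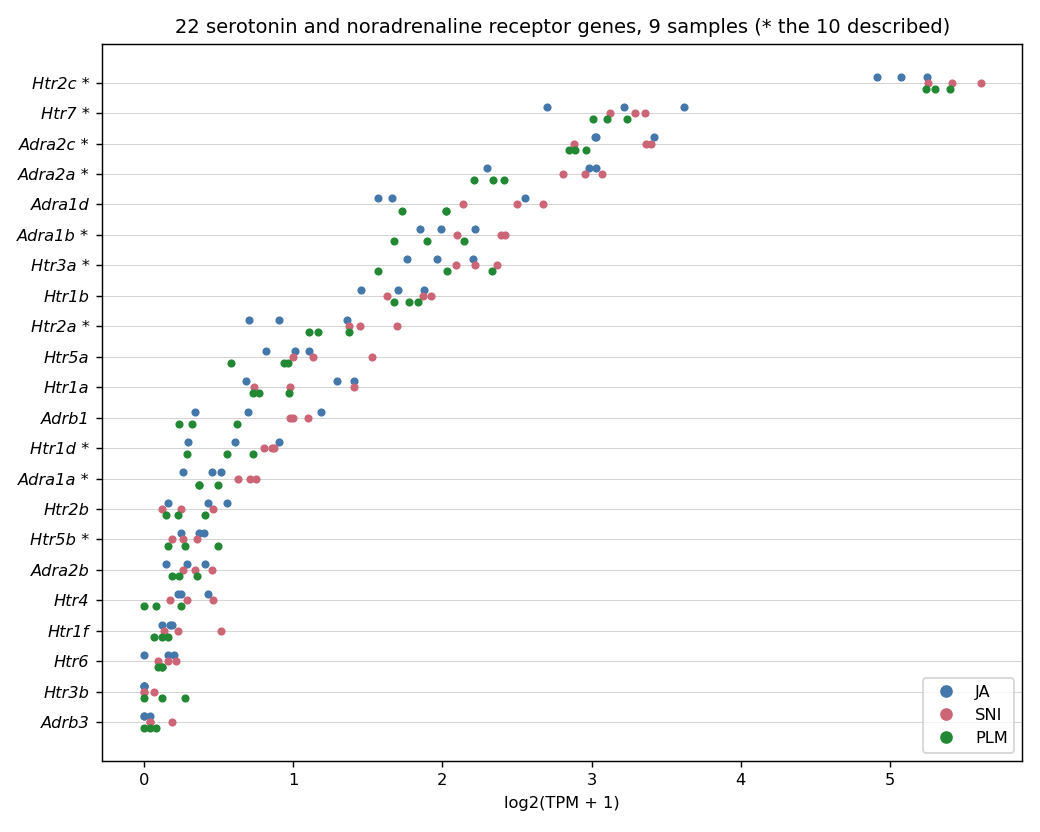
Level of the 10 receptor genes and of 12 other serotonin and noradrenaline receptor genes as log2(TPM + 1), with 1 point for each of the 9 samples, coloured by group and ordered by mean TPM; the 10 genes marked with a star are those described in full. Htr2c lies apart from the rest, with a mean of 38.0 TPM against 8.21 TPM for Htr7, the next gene.

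To ask whether the drug combination was accompanied by other receptor levels in injured rats, PLM was compared with SNI. Adra2a fell by 40.4% of its SNI mean as deposited, a call that did not hold after median-centring, while Htr2c, the most abundant receptor, overlapped between the groups. Of the 7 receptors with a mean of at least 1 TPM, 1 was called lower at an adjusted p under 0.05 and none higher, where 13.6% of all loci tested were called lower, and 2 had an unadjusted p under 0.05, where 37.1% of all loci did. All 7 had a log2 fold change below 0, with a median of -0.29, against -0.21 over all loci, of which 85.0% were below 0. After median-centring 0 of the 7 were called and 1 had an unadjusted p under 0.05, where 0.685% of all loci were called lower and 16.9% had an unadjusted p under 0.05. On that scale 5 of the 7 were below 0, where 42.4% of all loci were. The median of the 7 was -0.043 against 0.037 over all loci. Over all 15474 loci the calls were 2110 lower and 38 higher as deposited, and 106 lower and 20 higher after centring.

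Among the receptors coupled to Gi, Adra2a stood at 7.38, 6.76 and 5.99 TPM in SNI and at 3.63, 4.32 and 4.05 TPM in PLM. Each PLM sample was below each SNI sample, as at 41.9% of all loci tested. The group means were 6.71 ± 0.696 and 4.0 ± 0.348 TPM (SD, n = 3 each). On the log2(TPM + 1) scale, where changes of low genes come out smaller than they are, Adra2a fell by 0.62 as deposited (SE 0.11, 95% confidence interval -0.88 to -0.37, limma adjusted p = 0.0227). Median-centred, the difference was -0.38 (interval -0.59 to -0.16) with an adjusted p of 0.123, and the groups still did not overlap, as at 9.73% of all loci on that scale. The call also did not hold without any of the 3 PLM samples or without SNI replicate 1, with an adjusted p between 0.0556 and 0.0837, while the log2 fold change stayed between -0.67 and -0.56 in these fits. Its relative Adra2c, which encodes the alpha-2C adrenoceptor, stood at 9.32, 6.38 and 9.52 TPM in SNI and at 6.41, 6.81 and 6.19 TPM in PLM. SNI replicate 2 lay among the PLM samples, and the difference was -0.32 (adjusted p = 0.174), or -0.068 centred. Without that library the difference was -0.48 with a limma adjusted p of 0.0402, where 1456 of 15397 loci were called lower. That library had the highest Schwann cell marker sum of its group, and the part of these markers in the difference was not tested. Htr1d was at 0.75, 0.81 and 0.83 TPM in SNI and at 0.22, 0.66 and 0.47 TPM in PLM, with no overlap. In the fit without a filter on low values, where 31.7% of all loci had no overlap in this direction, its difference was -0.32 (adjusted p = 0.161), and -0.089 with overlap once centred.

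Among the receptors coupled to Gq, none was called in PLM versus SNI. Adra1a, which encodes the alpha-1A adrenoceptor, was at 0.64, 0.68 and 0.55 TPM in SNI and at 0.29, 0.29 and 0.41 TPM in PLM, so the groups did not overlap. Its difference in the fit without a filter was -0.29 (interval -0.46 to -0.11, unadjusted p = 0.00670, adjusted p = 0.0701), and -0.057 with overlap after centring. Adra1b was at 4.25, 3.29 and 4.34 TPM in SNI and at 2.73, 3.42 and 2.19 TPM in PLM. PLM replicate 2 lay above the lowest SNI sample, and the difference was -0.40 (unadjusted p = 0.0452, adjusted p = 0.127), or -0.15 centred. Htr2a was at 1.73, 1.59 and 2.24 TPM in SNI and at 1.15, 1.59 and 1.25 TPM in PLM, where the groups met at 1.59 TPM, and its difference was -0.29 (adjusted p = 0.223), or -0.043 centred. Htr2c was at 47.73, 37.13 and 41.73 TPM in SNI and at 36.90, 41.23 and 38.43 TPM in PLM. These groups overlapped, and the difference of -0.11 had an interval from -0.36 to 0.13 (adjusted p = 0.446) and turned to 0.14 after centring.

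None of the remaining serotonin receptors was called in PLM versus SNI. Htr7 was at 8.80, 7.73 and 9.24 TPM in SNI and at 7.07, 8.41 and 7.58 TPM in PLM, with a difference of -0.14 (interval -0.38 to 0.096, adjusted p = 0.323) that turned to 0.10 after centring. The channel subunit Htr3a was at 3.65, 3.26 and 4.15 TPM in SNI and at 3.08, 4.04 and 1.96 TPM in PLM. PLM had the wider spread, from 1.96 to 4.04 TPM, and the difference was -0.25 (interval -0.75 to 0.25, adjusted p = 0.399), or -0.0010 centred. Htr5b was at 0.28, 0.14 and 0.20 TPM in SNI and at 0.12, 0.41 and 0.21 TPM in PLM, with a difference of 0.042 (interval -0.20 to 0.29, adjusted p = 0.809). Its groups overlapped as deposited. After centring the difference was 0.27 (interval 0.037 to 0.51, unadjusted p = 0.0296, adjusted p = 0.159) and each PLM sample lay above each SNI sample, as at 23% of all loci in that fit. Centring adds the same log2 amount to a gene at any level, and when TPM were instead multiplied to an equal median the Htr5b difference was 0.092 (adjusted p = 0.738). In the fit without a filter, which holds all 10 receptors, Adra2a alone was called (adjusted p = 0.0405), where 5.63% of all loci were called lower, and 3 of 10 receptors had PLM wholly below SNI, where 31.7% of all loci did. In it 3 receptors had an unadjusted p under 0.05, where 27.7% of all loci did. The original analysis called genes with DESeq2 at an unadjusted p under 0.05 and a log2 fold change past 1 in size. The same thresholds were applied here to the limma fit on log2(TPM + 1), so these are not the calls of that test. In PLM versus SNI 0 of the 7 receptors passed, where 1.65% of all loci did. The same held for 0 of 7 in SNI versus JA, where 0.688% of loci passed, and in PLM versus JA, where 0.938% did.

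**Figure D2:**
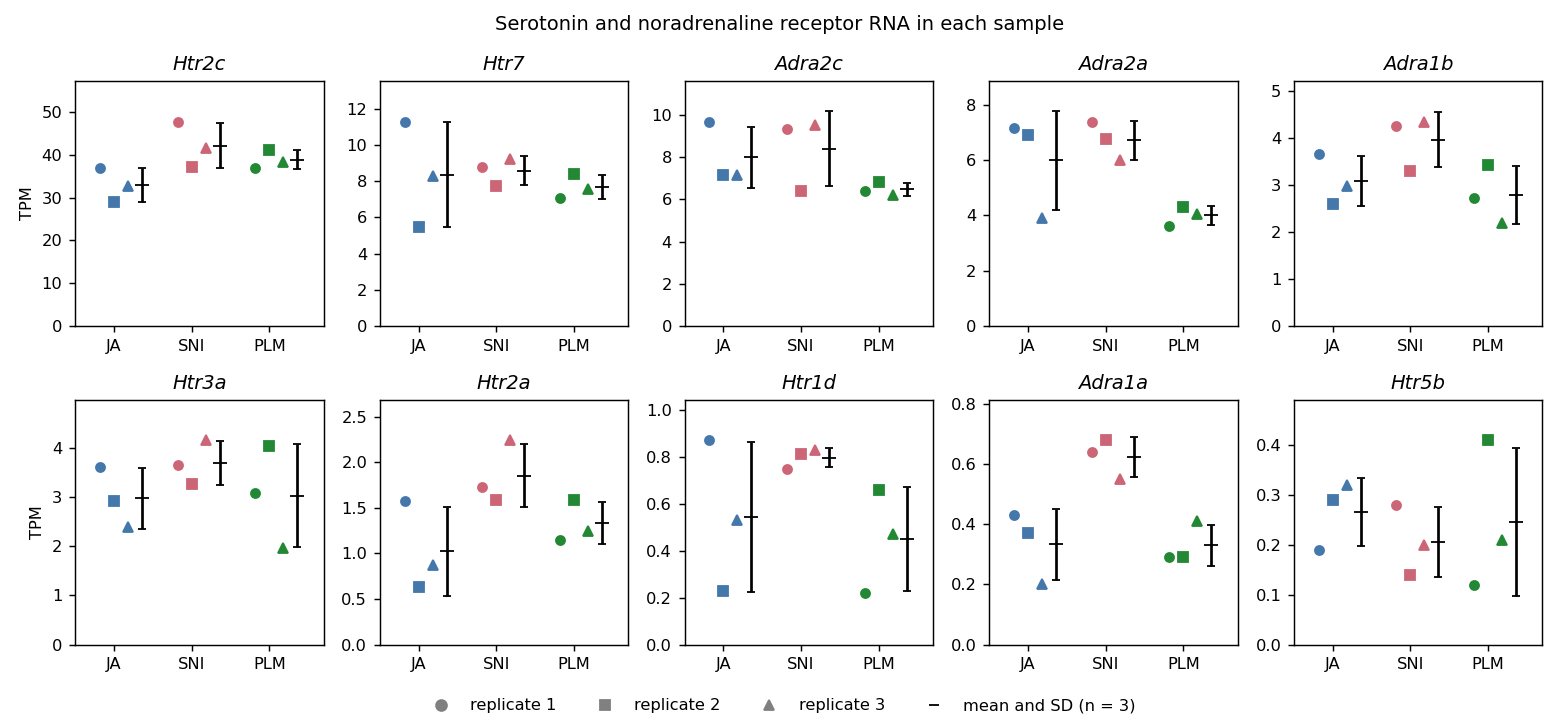
TPM of each of the 10 receptors in each sample of the JA, SNI and PLM groups, on axes that start at 0, with the replicate number as the symbol and the group mean and SD (n = 3) as the bar beside the points. Adra2a lies between 3.63 and 4.32 TPM in PLM, below the SNI samples at 5.99 to 7.38 TPM, while JA replicate 3, at 3.92 TPM, lies among the PLM samples.

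Markers of astrocytes, the glia that surround spinal synapses, moved with the groups in the same direction as Adra2a. Of 12 astrocyte markers 10 were called lower in PLM as deposited and 9 after centring, with medians of -1.49 and -1.25, where 13.6% and 0.685% of all loci were called lower. Their summed level was 1587 to 1860 TPM in SNI, 608 to 745 TPM in PLM and 898 to 1923 TPM in JA, and none of the 12 was at 0 in all samples. Within groups Adra2a and this sum did not always keep one order. JA replicate 3 had the lowest Adra2a level and the lowest astrocyte marker sum of its group, at 898 TPM, and also the lowest motor neuron marker sum. SNI replicate 3 likewise had the lowest Adra2a level, at 5.99 TPM, and the lowest astrocyte marker sum of its group, at 1587 TPM. By contrast, PLM replicate 1 had the lowest Adra2a level and the highest astrocyte marker sum of its group, at 745 TPM. Of 7 motor neuron markers tested, 2 were called lower as deposited and 0 after centring, against the same shares of all loci. Of the neuron markers, 0 of 10 were called in either direction and 1 had an unadjusted p under 0.05, where 37.1% of all loci did. Blood cell markers, led by the haemoglobin genes, summed to 4149 to 7302 TPM in SNI, 8008 to 11241 TPM in PLM and 5412 to 11916 TPM in JA. Of the 7 tested in PLM versus SNI, 0 were called and 3 had an unadjusted p under 0.05, with a median of 0.56, or 0.80 centred. The sums of oligodendrocyte and endothelial markers were also higher in each PLM than in each SNI sample, and those of inhibitory neuron and oligodendrocyte precursor markers lower. The mitochondrial share was higher in each PLM than in each SNI sample. The part of these markers and of the mitochondrial share in the Adra2a difference was not tested, apart from the rescaling without the mitochondrial protein genes, under which the Adra2a difference was -0.52 (adjusted p = 0.0734). In a bulk sample, fewer cells of a type and less RNA per cell cannot be told apart.

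**Figure D3:**
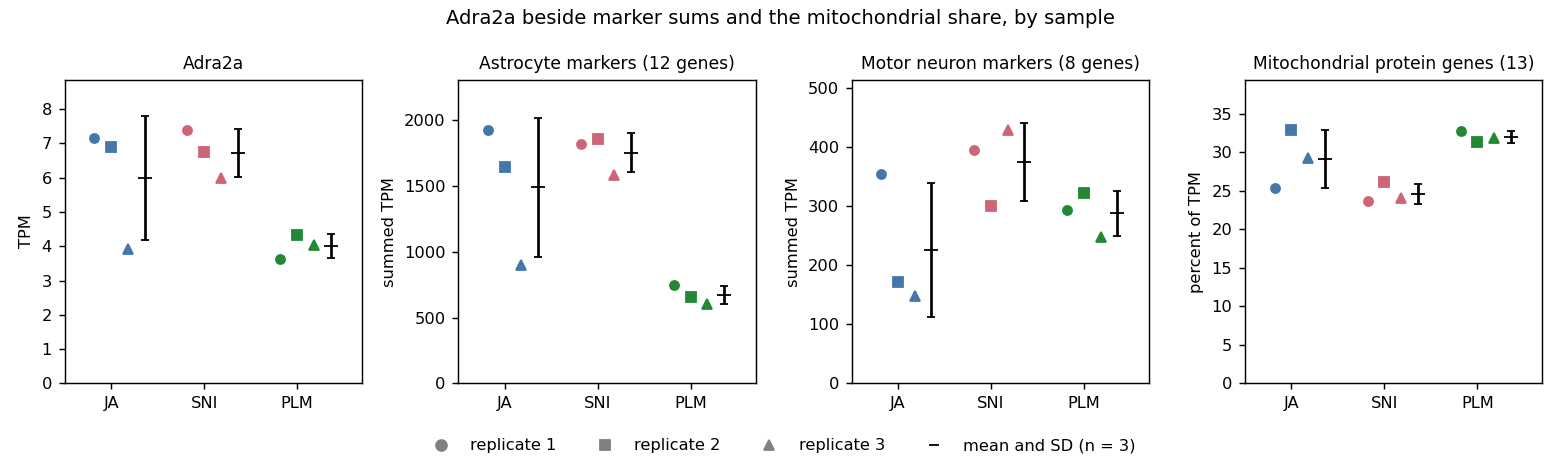
Adra2a in TPM beside the summed TPM of 12 astrocyte markers and 8 motor neuron markers and the percent of TPM on 13 mitochondrial protein genes, for each sample of the 3 groups, with the group mean and SD (n = 3). The astrocyte sum is 608 to 745 TPM in PLM against 1587 to 1860 TPM in SNI. Within JA and within SNI the lowest sample of both Adra2a and the astrocyte sum is replicate 3. Within PLM the lowest Adra2a sample, replicate 1, has the highest astrocyte sum.

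To ask whether nerve injury itself was accompanied by other receptor levels, SNI was compared with JA. Htr2a and Htr2c, both coupled to Gq, had the largest differences on the log2(TPM + 1) scale among the receptors with at least 1 TPM. Both were above JA in SNI without passing the test. As a percent of the JA mean the difference was 81.1% for Htr2a and 28.2% for Htr2c, and 28.9% for Adra1b. Of the 7 receptors tested, 0 were called and 1 had an unadjusted p under 0.05 in limma, where 0% of 15557 loci were called and 7.1% had an unadjusted p under 0.05. None of the 7 was below 0, where 23.6% of all loci were, and the median was 0.25, against 0.12 over all loci. After centring 2 of the 7 were below 0, where 51.4% of all loci were. On that scale 0 had an unadjusted p under 0.05 in limma, where 4.83% of all loci did, and the median was 0.13 against -0.0055.

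Htr2a stood at 1.57, 0.63 and 0.87 TPM in JA, all below the SNI samples at 1.59 to 2.24 TPM. The group means were 1.02 ± 0.488 and 1.85 ± 0.342 TPM, and the difference was 0.52 (interval -0.020 to 1.05, unadjusted p = 0.0568, adjusted p = 0.614), or 0.39 centred. The gap between the groups was small, since JA replicate 1 was 1.57 TPM. Htr2c stood at 36.94, 29.11 and 32.67 TPM in JA, below the SNI samples at 37.13 TPM or more. Its means were 32.9 ± 3.92 and 42.2 ± 5.32 TPM, with a difference of 0.35 (interval 0.038 to 0.66, unadjusted p = 0.0327, adjusted p = 0.614), or 0.23 centred. These 2 of 7 receptors had no overlap as deposited, where 12.1% of all loci had none in this direction, and 0 of 7 after centring, where 4% of all loci had none. Adra1a, tested without a filter, was at 0.43, 0.37 and 0.20 TPM in JA, below SNI at 0.55 to 0.68 TPM, with a difference of 0.29 (unadjusted p = 0.0181, adjusted p = 0.704), or 0.17 centred. In that fit 3 of 10 receptors had no overlap in this direction, against 9.7% of all loci, and 3 of 10 had an unadjusted p under 0.05, against 6.11% of all loci.

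The other receptors overlapped between JA and SNI. Adra1b was at 3.65, 2.60 and 2.97 TPM in JA, with a difference of 0.29, or 0.16 centred. Htr3a was at 3.61, 2.91 and 2.39 TPM, with a difference of 0.25, or 0.13 centred, and Htr1d at 0.87, 0.23 and 0.53 TPM, with a difference of 0.24, or 0.13 centred. Adra2a was at 7.15, 6.90 and 3.92 TPM in JA, a range that overlapped that of SNI, and its difference was 0.17 (interval -0.33 to 0.68, adjusted p = 0.751), or 0.052 centred. Without JA replicate 3 the difference as deposited was -0.062. That library had the highest Schwann cell marker sum of all samples, and the part of these markers was not tested. Htr7 was at 11.28, 5.49 and 8.29 TPM in JA and differed by 0.081 (interval -0.46 to 0.63), which turned to -0.041 after centring. Adra2c was at 9.67, 7.15 and 7.13 TPM and differed by 0.060, which turned to -0.061. Htr5b was at 0.19, 0.29 and 0.32 TPM and was the one receptor below JA in SNI, with a difference of -0.070 (adjusted p = 0.747), or -0.18 centred.

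Motor neuron markers differed between the JA samples. The sum of 8 such markers was 355.0 TPM in JA replicate 1, 172.0 TPM in replicate 2 and 147.8 TPM in replicate 3, against 301 to 428 TPM in SNI and 247 to 322 TPM in PLM. Of the 7 tested, 0 were called and 3 had an unadjusted p under 0.05 in SNI versus JA, with a median of 0.96, or 0.83 centred, where 7.1% of all loci had such a p and the median of all loci was 0.12, or -0.0055 centred. JA replicate 1 was also the highest JA sample for 9 of the 10 receptors, Htr5b being the exception, where it was the highest at 55.7% of 15503 loci. Without it the Htr2a difference was 0.70 (adjusted p = 0.239) and the Htr2c difference was 0.43 (adjusted p = 0.243). The part of the motor neuron markers in the receptor differences was not tested.

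PLM was also compared with JA, which gives the receptor levels of treated injured rats against uninjured rats. No receptor was called: of 7 tested, 0 had an adjusted or an unadjusted p under 0.05 in limma, where 0.0195% of 15349 loci were called and 11.8% had an unadjusted p under 0.05. The median was -0.061, against -0.096 over all loci, and 5 of 7 were below 0, where 71.2% of all loci were. After centring 2 of 7 were below 0, where 43.7% of all loci were. On that scale 1 of 7 had an unadjusted p under 0.05 in limma, where 9.98% of all loci did. Each group enters 2 of the 3 comparisons, so these are not independent. Adra2a differed by -0.45 (interval -0.95 to 0.049, unadjusted p = 0.0701, adjusted p = 0.467), or -0.33 centred. JA replicate 3, at 3.92 TPM, lay within the PLM range, and without it the difference was -0.68 (adjusted p = 0.0854). Adra2c was the one receptor of the 7 whose groups did not overlap, where 15.7% of all loci had PLM wholly below JA. Its PLM samples, at 6.19 to 6.81 TPM, lay below JA at 7.13 TPM or more, with a difference of -0.25 (adjusted p = 0.511), or -0.13 with overlap after centring. Htr2c went the other way, at 36.90 to 41.23 TPM in PLM against 29.11 to 36.94 TPM in JA, with a difference of 0.24 (interval -0.017 to 0.49, adjusted p = 0.454). After centring its groups did not overlap and the difference was 0.36 (interval 0.15 to 0.58, unadjusted p = 0.00607, adjusted p = 0.476), where 9.51% of all loci had PLM wholly above JA. Htr2a differed by 0.23, or 0.35 centred, and Adra1b by -0.11, or 0.011 centred. The other 5 receptors differed by less than 0.1 in size as deposited. Centred, Htr3a stood at 0.12, Htr7 at 0.063, Htr1d at 0.037, Htr5b at 0.089 and Adra1a at 0.12, with PLM wholly above JA for Adra1a on that scale, as at 10.7% of all loci in the fit without a filter.

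**Figure D4:**
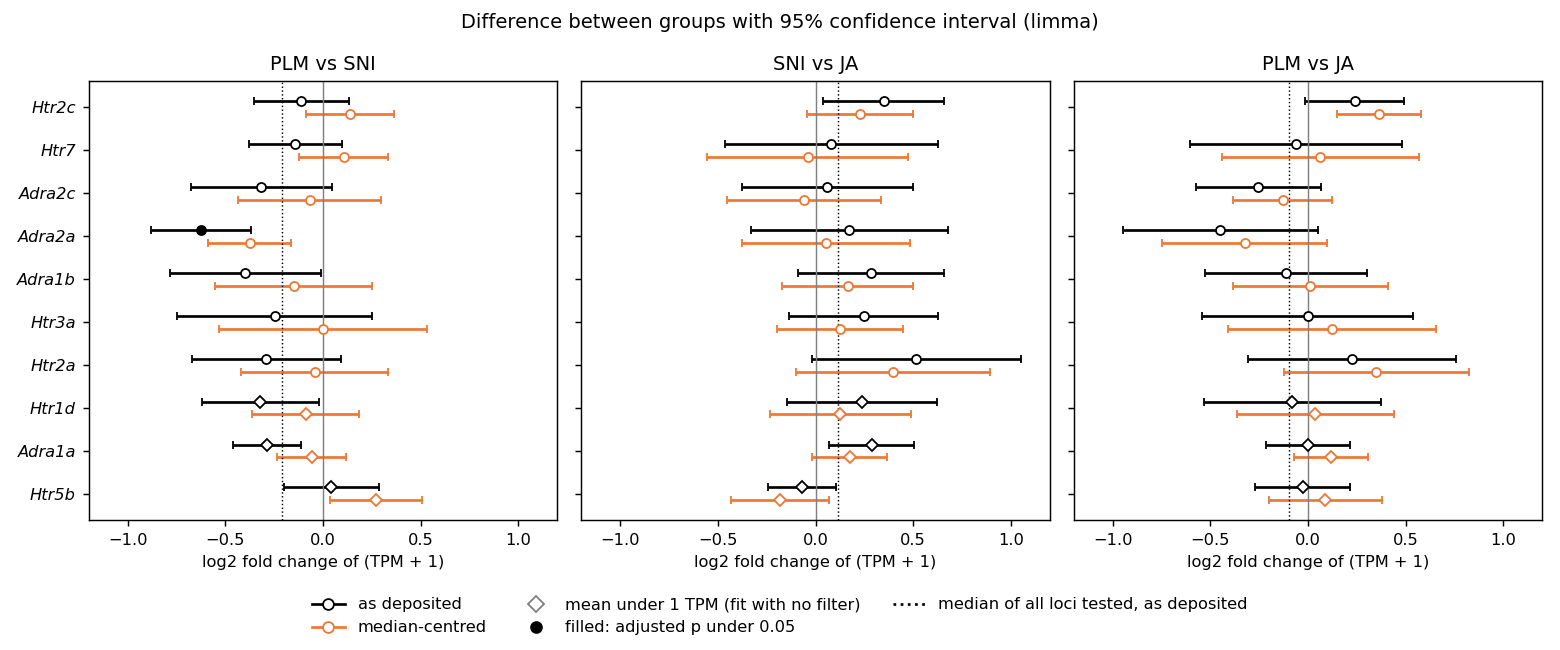
Log2 fold change of (TPM + 1) of each receptor in the 3 comparisons, with 95% confidence intervals from limma, as deposited (black) and median-centred (orange); diamonds mark receptors under a mean of 1 TPM, tested without a filter, and the dotted line is the median of all loci tested. The filled point is the one call at an adjusted p under 0.05, Adra2a in PLM versus SNI at -0.62, whose centred value of -0.38 is open.

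In the JA and PLM groups, 1 sample held the highest level of nearly all the receptors. JA replicate 1 is described above, and PLM replicate 2 was the highest PLM sample for 9 of the 10 receptors, with Adra1a the exception, where it was the highest at 34.2% of all loci. SNI replicate 2 was the lowest SNI sample for 7 of the 10, where it was the lowest at 39.5% of all loci, and SNI replicate 3 was the highest for 6, where it was the highest at 25.6% of all loci. The summed TPM of the 10 receptors was 75.4, 55.7 and 59.3 in JA, 84.5, 67.8 and 78.8 in SNI, and 61.6, 71.2 and 62.7 in PLM, so the groups overlapped in this sum. Htr2c carried most of it in each sample apart from JA replicate 1, where its share was 49.0%.

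Of 12 other serotonin and noradrenaline receptor genes, the most abundant was Adra1d, which encodes the alpha-1D adrenoceptor. It was at 4.86, 2.17 and 1.97 TPM in JA, at 4.66, 3.41 and 5.37 TPM in SNI and at 2.32, 3.06 and 3.06 TPM in PLM. Its PLM samples lay below its SNI samples, as at 41.9% of all loci tested. The difference was -0.51 (limma unadjusted p = 0.0208, adjusted p = 0.0837), or -0.27 centred. Of the 3 tested at 1 TPM or more in PLM versus SNI, 0 were called and 1 had an unadjusted p under 0.05, where 13.6% of all loci were called lower and 37.1% had such a p. Their median was -0.39, and 2 of 3 were below 0 after centring, where 42.4% of all loci were. Htr1b (-0.046) overlapped between these groups. Htr5a (-0.39, limma adjusted p = 0.225) did not, with PLM below SNI as at the same 41.9% of loci. Adrb1, the beta-1 adrenoceptor gene, was under 1 TPM on average. It was at 1.14, 1.00 and 0.97 TPM in SNI and at 0.54, 0.25 and 0.18 TPM in PLM. In the limma fit without a filter Adrb1 fell by 0.63 (adjusted p = 0.0417), or stood at -0.40 with an adjusted p of 0.168 after centring. In that fit as deposited, 5.63% of all loci were called lower and 31.7% had PLM wholly below SNI. Htr1a was at 0.67 to 1.66 TPM in SNI and 0.66 to 0.96 TPM in PLM and overlapped. Htr2b, Adra2b, Htr4, Htr1f, Htr6, Htr3b and Adrb3 had means from 0.0356 to 0.246 TPM, and all 7 overlapped. Htr3b, which encodes the partner subunit of Htr3a, was listed at 0 in 6 of 9 samples.

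Genes that make, carry and clear the amines differed widely in level in the cord. The serotonin transporter Slc6a4 was at 0.10 TPM or less and the noradrenaline transporter Slc6a2 at 0.09 TPM or less in each sample. The synthesis enzymes Tph2, Th and Dbh had means of 0.397, 0.940 and 0.0111 TPM, and Pnmt was listed at 0. The decarboxylase Ddc, shared by both synthesis routes, was at 5.01 to 10.81 TPM, and the vesicular transporter Slc18a2 at 2.42 to 3.64 TPM. The degrading enzymes Maoa and Maob were higher, with means of 42.1 and 33.6 TPM over the 9 samples. Of 5 genes of this list tested in PLM versus SNI, 0 were called, where 13.6% of all loci were called lower. Among the 5, 1 had an unadjusted p under 0.05 in limma, where 37.1% of all loci did. It was the low-affinity amine transporter Slc29a4 (-0.35, adjusted p = 0.122).

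Genes that carry the receptors' signals were lower in PLM in part as deposited, and none of those calls held after centring. Of 14 Gq pathway genes tested, 3 were called lower and 0 higher, with a median of -0.31, where 13.6% of all loci were called lower as deposited and 0.685% after centring, shares that also stand beside the lists that follow. They included the phospholipases Plcb1, which fell by 0.73 (adjusted p = 0.0269; centred -0.48, adjusted p = 0.120), and Plcb3, which fell by 0.46 (adjusted p = 0.0348; centred -0.22, adjusted p = 0.249). After centring 0 were called lower and 1 higher, Rgs4, a brake on Gq and Gi signals, at 0.41 (adjusted p = 0.0440), against 0.16 as deposited. Of 10 Gi pathway genes, 2 were called lower as deposited, the alpha subunits Gnao1 (-0.42, adjusted p = 0.0280) and Gnai2 (-0.41, adjusted p = 0.0176), and 0 after centring. Of 16 loci of the Gs pathway list, 5 were called lower as deposited, among them the phosphodiesterase Pde4b (-0.46) and the adenylyl cyclase Adcy8 (-0.45), and 0 after centring. Of 7 receptor kinases and arrestins, 2 were called lower as deposited, with Arrb1 at -0.50 (adjusted p = 0.0380), and 0 after centring. Each of these lists had a median between -0.35 and -0.30, against -0.21 over all loci. In SNI versus JA none of the genes of these 4 lists was called, where 0% of all loci were. Between 0 and 3 of each list had an unadjusted p under 0.05 in limma, where 7.1% of all loci did in that comparison.

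As a description, the loci whose median-centred level was most like that of Htr2c over the 9 samples were Napg (Pearson's r = 0.987), Tspyl2 (0.976) and Cpeb3 (0.972), chosen as the highest of 15502 loci, with the samples of the 3 groups pooled.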

How the data were processed

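Per the study's methods and the submitters' processing notes, the authors trimmed reads with fastp version 0.19.5, mapped them with HISAT2 version 2.0 and estimated expression with StringTie version 1.3.3b. The notes name the human build GRCh38.p13 for these rat samples. The table carries rat Ensembl identifiers, and the rat build is not given in the sources used here. The deposited values are TPM with 2 decimals, a unit read from sample totals of about 1000000, so read depth is unknown.

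The cord side, sex and dosing time come from the study's methods. Pairs of groups were fitted on log2(TPM + 1) by limma (version 3.58.1, under R 4.3.3) with a variance trend, no covariate and 6 samples per fit. Loci averaging 1 TPM or more entered, and p-values were Benjamini-Hochberg adjusted over all of them. Receptors under 1 TPM were tested without the filter. The members and lists were chosen with earlier results of these data known. Of each list, at most the 2 lowest and 2 highest genes by fold change were named, with all receptors. Slc6a4, Slc6a2, Tph2, Th, Dbh, Pnmt and Maob, and the levels of Ddc, Slc18a2 and Maoa, were named after their values were seen. Of 24 lists, those without values here were only counted. The fit was tested on simulated data. Alternatives were median-centring, rescaling without mitochondrial protein genes, quantile normalization, a pseudocount of 0.1, other filters, all 9 samples, the replicate block and leaving out samples. Rescaling TPM to an equal median was added after seeing the data. Lipid, protein and behaviour data were not analysed here. Of the gene lists, 2 genes are not reported here and are in no count.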

Additional observations from a re-analysis of the deposited data

How the results depend on the processing

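Of the 441 results of single receptors under an alternative, 382 kept their direction and side of the threshold. The count of receptors called in PLM versus SNI, 1 as reported, was 0 after median-centring, without the mitochondrial protein genes, under quantile normalization, with all 9 samples in one fit, with the replicate block and at an equal median, and ranged from 0 to 2 when each sample was left out in turn, with 2 (Adra2a and Adra2c) without SNI replicate 2. Without SNI replicate 2, 1456 of 15397 loci were called lower in PLM versus SNI. In SNI versus JA and PLM versus JA the count of receptors called was 0 throughout. For Adra2a in PLM versus SNI the log2 fold change ranged from -0.73 to -0.38 and the adjusted p from 0.0205 to 0.123, with 0.0780 for all 9 samples, 0.115 under quantile normalization and 0.110 at an equal median. The replicate numbers did not pair the samples: deviations of same-numbered samples correlated between -0.046 and 0.13, and not every sample correlated best with its own number. With the replicate block the Adra2a adjusted p was 0.110, with the log2 fold change at -0.62. All loci called in that comparison were 2148 as reported, 126 centred, 287 without mitochondrial genes, 155 under quantile normalization, 107 at an equal median, 1258 without a filter, 486 with all 9 samples and 152 with the block. In PLM versus JA they were 3 as reported and 1 with the block. The cause was not tested.

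Directions that turned were all of differences that did not pass the test. In PLM versus SNI, Htr2c turned to 0.14 centred, 0.035 without mitochondrial genes, 0.10 under quantile normalization and 0.16 at an equal median, and Htr7 to 0.10 centred, under quantile normalization and at an equal median. In SNI versus JA, Htr7 turned to -0.041 centred, -0.034 under quantile normalization and -0.038 at an equal median, and Adra2c to -0.061 centred, -0.021 without mitochondrial genes, -0.065 under quantile normalization and -0.058 at an equal median. In PLM versus JA, Htr3a turned to 0.12, 0.043, 0.11 and 0.10 under these 4 scalings in that order, Adra1a to 0.12, 0.019, 0.047 and 0.038 in the same order and to 0.018 with a pseudocount of 0.1, and Htr7 to 0.063 centred, 0.069 under quantile normalization and 0.061 at an equal median. Centring also turned Htr1d to 0.037, Htr5b to 0.089 and Adra1b to 0.011 there. With each sample left out, values ranged from -0.050 to 0.12 for Htr5b in PLM versus SNI. In SNI versus JA they ranged from -0.16 to 0.30 for Htr7, -0.062 to 0.30 for Adra2a and -0.030 to 0.23 for Adra2c. In PLM versus JA they ranged from -0.23 to 0.069 for Htr1d, -0.18 to 0.20 for Htr3a, -0.12 to 0.046 for Htr5b, -0.30 to 0.16 for Htr7, -0.075 to 0.052 for Adra1a and -0.23 to 0.0035 for Adra1b. The depth behind each TPM is unknown, so for Htr1d, Adra1a and Htr5b, all under 1 TPM on average, the counting error cannot be given.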
